A study of Drosophila melanogaster with 4 samples.

Results

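The regions described here are piRNA source loci that depend on Rhi, cut into bins of 1 kb, that the deposited tables class as Enok-unbound and that lie on the assembled chromosomes of *Drosophila melanogaster*, outside the heterochromatin scaffolds marked Het. Bins were taken if their chromosome name did not contain Het and if all 4 libraries had a value above 0, which left no bin of this kind out. They number 552, out of 1591 Enok-unbound bins and 2364 bins in both tables, and they fall into 28 numbered clusters. Of these bins, 88 lay on 2L, 159 on 2R, 183 on 3L, 55 on chromosome 4 and 67 on X, and 36 were shorter than 1 kb.

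Rhino (Rhi, also named HP1D) is a germline paralogue of heterochromatin protein 1 whose chromodomain binds the H3K9me3 mark. With Deadlock and Cutoff it forms the RDC complex, which allows both strands of dual-strand piRNA clusters to be transcribed without ordinary promoters, and the transcripts are cut into the piRNAs that guide Piwi proteins against transposons. Such clusters are graveyards of transposon fragments and are concentrated in pericentromeric and subtelomeric heterochromatin. Enok is a MYST-family acetyltransferase that acetylates H3K23.

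Chromatin was taken from the ovaries of 2 to 3 day old females kept at 29 °C and given wet yeast for 1 to 2 days. In *enok*_KD flies the third chromosome carried the *enok* hairpin P{TRiP.HMS02634}attP2, and in GFP_KD flies the EGFP hairpin P{VALIUM20-EGFP.shRNA.1}attP2. Both genotypes carried, each as 1 copy, the 3 GAL4 transgenes of the MTD-Gal4 driver, of which 1 is a GAL4::VP16 transgene under *otu* and the others are GAL4-nos.NGT and GAL4::VP16-nos.UTR in CG6325[MVD1]. MTD-Gal4 acts in the germline, whereas the chromatin came from whole ovaries, which also hold somatic follicle cells that the driver does not reach. An IP and an input library are listed for each knockdown. The antibody is Rhino by the series title and the extraction protocol, although the design text of the series names RNA polymerase II. How the class Enok-unbound was assigned is not given in the sources used here, so the name is used only as the label of the table.

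Each knockdown is represented by 1 IP and 1 input library, so no difference has a replicate check and no p-value is given. The methods of the study describe bins made from pooled reads of several replicates. The deposited values follow whole reads at a single depth per column, from which it cannot be told whether a column holds 1 preparation or a pool. Neighbouring bins share these libraries and are not replicates. By the steps between the values, the *enok*_KD libraries held 6657843 uniquely mapped reads in the IP and 8196249 in the input, and the GFP_KD libraries 8024682 in the IP and 7742110 in the input. Values are scaled to library depth (RPM) and divided by the mappability index of the bin. Occupancy is log2 of IP over input, and the change is the *enok*_KD occupancy minus the GFP_KD occupancy, so that a change of 1 is a 2-fold rise. The whole reads behind each value were recovered in the same way, and the standard error (SE) of a single bin covers counting error only. A 95% interval beside a median covers the spread over bins, and a Wilson interval beside a share likewise.

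Rhi occupancy over the arm bins moved in both directions and differed between clusters and chromosomes. Median occupancy was 0.85 in *enok*_KD and 0.63 in GFP_KD. The median change was 0.15 (0.06 to 0.22), with quartiles of -0.34 and 0.71 and single bins between -3.09 and 2.51. Lower in *enok*_KD were 42.2% of the bins (38.2 to 46.4). When each cluster was counted once, the median of the 28 cluster medians was 0.14 with an interval of -0.16 to 0.26, which includes 0. With a pseudocount of 9.15 RPM added to every value, the median over bins was 0.07 (0.04 to 0.11). Without cluster 6, the cluster with the steepest rise, the median over bins was 0.11 (0.02 to 0.19), and without cluster 31 it was 0.09 (0.02 to 0.17). Left out in turn, each of the 28 clusters gave a median between 0.09 and 0.19.

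Single bins with large changes were more often higher than lower. At least 2-fold higher in *enok*_KD were 84 of the 552 bins (15.2%), beside 10.2% of all 2363 bins with values. At least 2-fold lower were 27 bins (4.89%), beside 12.8% of all bins. Counted over all their bins, the arms thus held a larger share of 2-fold rises than the tables as a whole and a smaller share of 2-fold falls. The rises were uneven: clusters 6 and 31 held 37 of the 84, at 20 of 36 and 17 of 35 bins. Without cluster 6 the share of rises was 12.4% of 516 bins. The share without both clusters was not computed, so the larger share may rest on these 2 clusters. Beyond the 95% counting error, 129 bins (23.4%) were higher, against a background of 16.0%, and 51 bins (9.24%) were lower, against a background of 17.6%. Clusters 6 and 31 held 21 and 24 of these 129 higher bins. The 2-fold rises rested on more reads than the 2-fold falls. Under 20 reads in some library stood behind 15 of the 84 rises and 19 of the 27 falls, and the inputs of the 2 knockdowns differed by at least 1.5-fold at 19 of the rises and 20 of the falls. The IP alone was at least 2-fold higher at 53 of the 84 rises, and at least 2-fold lower at 12 of the 27 falls.

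By medians over bins, the Enok-unbound bins on Het scaffolds and the Enok-bound bins on arms stood apart from these. The 1039 Het bins of the same class had a median occupancy of 0.95 in *enok*_KD and 1.00 in GFP_KD, and their median change was -0.06 (-0.12 to -0.01). The difference between the medians of the arm and the Het bins was 0.21, and 0.17 without cluster 6 and 0.15 without cluster 31. With the reads of all bins of a set pooled, the change was 0.14 in the arm bins and 0.13 in the Het bins. By that measure, in which bins with many reads weigh most, these 2 sets did not stand apart. The arm value leaned on 20 bins with very high inputs, described below, which held 185838 of the 272684 *enok*_KD IP reads. Pooled over those 20 bins the change was 0.00, and over the other 532 arm bins it was 0.49. The Het bins were not split in this way. The 314 Enok-bound arm bins had a median of 1.45 in *enok*_KD and 2.16 in GFP_KD, and without cluster 1, which holds 130 of them, 0.87 in *enok*_KD and 0.99 in GFP_KD. Enok-unbound arm bins thus had a lower median in the control than any of these sets. The input medians differed by 0.00 in the arm bins and by -0.08 in the Het bins between the knockdowns. With 1 library per group none of these differences could be tested, and the inputs' part in them was not tested.

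**Figure D1:**
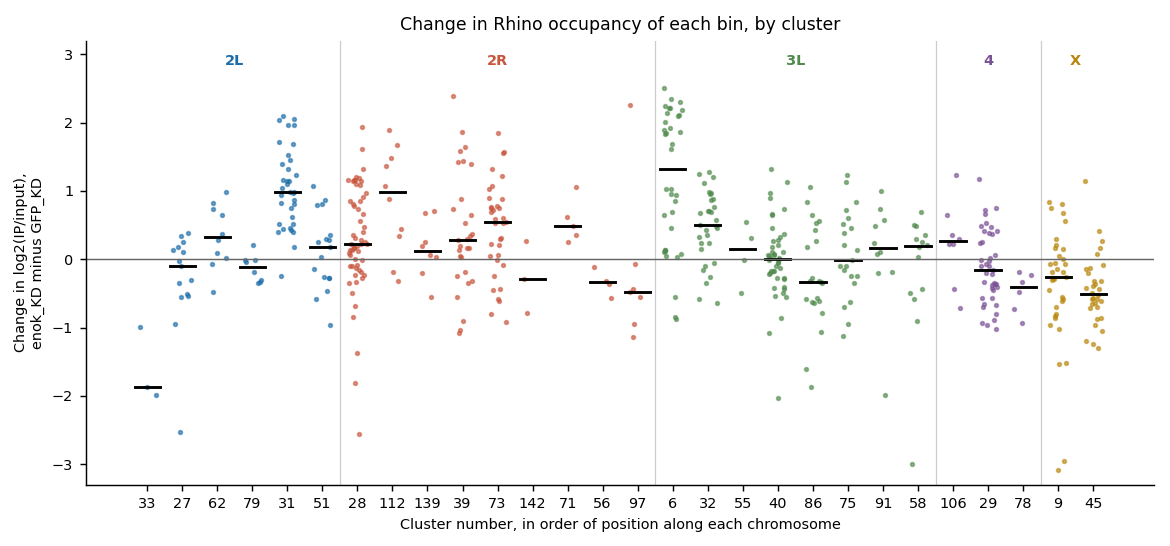
Change in log2(IP/input), *enok*_KD minus GFP_KD, of each of the 552 bins (points, coloured by chromosome) in the 28 clusters, ordered by position along each chromosome. Black bars are cluster medians: cluster 6 on 3L (1.32) and cluster 31 on 2L (0.99) lie highest and cluster 33 at the tip of 2L (-1.86) lowest, and both X clusters lie below 0.

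The chromosomes differed in direction. On 2L the median occupancy was 1.05 in *enok*_KD and 0.64 in GFP_KD, with a median change of 0.35 (0.18 to 0.52). On 2R it was 0.83 in *enok*_KD and 0.42 in GFP_KD, with a change of 0.26 (0.17 to 0.40). On 3L it was 0.70 in *enok*_KD and 0.59 in GFP_KD, with a change of 0.20 (0.08 to 0.35). These 3 autosomal arms were higher by their medians, though not all of their clusters were. Without cluster 31 the change on 2L was -0.02 (-0.27 to 0.18), and without cluster 6 that on 3L was 0.10 (-0.02 to 0.23), so that on both arms the interval included 0 once 1 cluster was left out. On chromosome 4, median occupancy was 0.81 in *enok*_KD and 0.92 in GFP_KD, with a change of -0.19 (-0.37 to 0.06), -0.09 (-0.36 to 0.23) without cluster 78 and -0.22 (-0.38 to -0.03) without cluster 106. On X it was 0.88 in *enok*_KD and 1.27 in GFP_KD, with a change of -0.39 (-0.58 to -0.20). Lower bins made up 52 of 67 on X and 34 of 55 on chromosome 4. Beyond counting error, X held 3 higher and 23 lower bins, and 2R held 54 higher and 8 lower bins. Input medians shifted by between -0.08 and 0.07 on the 5 chromosomes.

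Of the 28 clusters, 16 had a positive and 12 a negative median change. The 18 clusters with at least 10 bins held 496 of the 552 bins. Among them the interval of the median lay above 0 in 6 clusters, below 0 in 2 and across 0 in 10. Their medians had a standard deviation (SD) of 0.49, against 0.09 for the medians of the input change, of which the one farthest from 0 was 0.30. The change also holds the variation of the 2 IPs, which the inputs do not measure. This comparison therefore cannot show how far 2 IPs of 1 genotype would differ. Bins that touch each other also went together: over 444 touching pairs the change had a Pearson r of 0.48, the input change an r of 0.03, and 300 pairs (67.6%) moved in 1 direction. These pairs share libraries, fragments that span a border and local base composition, and here too the input change lacks the variation of the IPs.

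**Figure D2:**
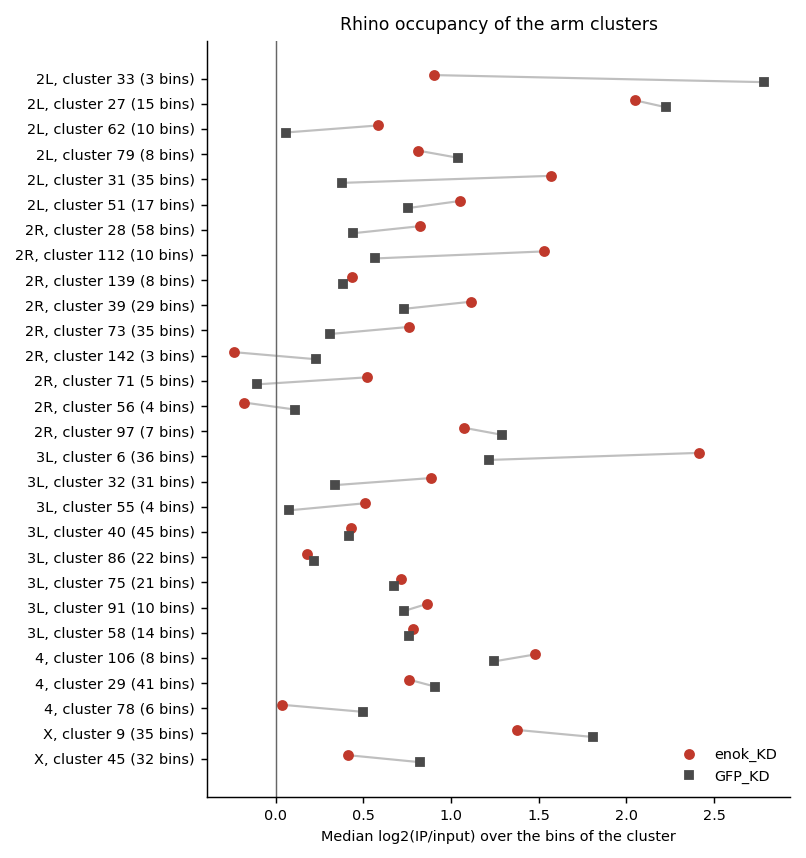
Median log2(IP/input) of each of the 28 clusters in *enok*_KD (red circles) and GFP_KD (grey squares), with a grey line joining the 2 values of a cluster. In *enok*_KD the highest median was that of cluster 6 (2.41), and in GFP_KD that of cluster 33 (2.78).

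Cluster 6 had the highest median occupancy of the arm clusters in *enok*_KD. It spans chr3L:23274001-23314199 on dm3, 40.2 kb, and its last base lies 1188 kb from the centromere-side end of the arm. By the zones defined below this makes it interior. Its 36 bins had a median occupancy of 2.41 in *enok*_KD and 1.22 in GFP_KD, and a median change of 1.32 (0.64 to 1.91). Most of its bins, 33 of 36, were higher, but the 2-fold rises were concentrated in 1 stretch. A run of 21 touching bins, chr3L:23288001-23309000, was higher throughout, with a median of 3.31 in *enok*_KD and 1.34 in GFP_KD, and 19 of the 21 were at least 2-fold higher. The other 15 bins had a median of 1.56 in *enok*_KD and 1.13 in GFP_KD, and their median change was 0.13. Of these 15 bins 12 were higher, 1 of them at least 2-fold, and 2 were higher beyond counting error. At the low-coordinate flank the bins starting at 23281001, 23282001 and 23283001 had changes of 0.95, 1.03 and 0.96, and those starting at 23276001 and 23277001 had changes of -0.87 and -0.85 with counting SEs of 0.66 and 0.67. This run was picked out by its values, so its change is a description.

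Within that run, the summit lay 19 to 24 kb from the start of the cluster. The bin chr3L:23293001-23294000 had 426 RPM in the *enok*_KD IP and 90.1 RPM in the GFP_KD IP, over inputs of 15.2 RPM in *enok*_KD and 15.9 RPM in GFP_KD. Its occupancy of 4.81 in *enok*_KD and 2.51 in GFP_KD gave a change of 2.31 ± 0.24 (counting SE). The largest change of any arm bin was at chr3L:23295001-23296000, with 425 RPM in the *enok*_KD IP and 93.4 RPM in the GFP_KD IP, over 22.1 RPM in the *enok*_KD input and 27.7 RPM in the GFP_KD input. That change was 2.51 ± 0.16. At chr3L:23291001-23292000 the IP had 39.9 RPM in *enok*_KD and 9.43 RPM in GFP_KD, and the inputs 4.49 RPM in *enok*_KD and 5.41 RPM in GFP_KD, a change of 2.35 ± 0.38. In all 3 bins the IP differed by over 4-fold and the inputs by under 1.5-fold. At the far flank, chr3L:23310001-23311000 had an occupancy of 0.08 in *enok*_KD and 0.03 in GFP_KD.

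Cluster 31 was higher along nearly its whole length. It spans chr2L:22489509-22556902, 67.4 kb, 454 kb from the centromere-side end. Its 35 bins had a median of 1.57 in *enok*_KD and 0.38 in GFP_KD, with a median change of 0.99 (0.81 to 1.24). Of these bins 34 were higher and 17 were at least 2-fold higher, and the lone lower bin was the last, at -0.24. At chr2L:22519001-22520000 the IP had 133 RPM in *enok*_KD and 35.7 RPM in GFP_KD, over inputs of 23.9 RPM in *enok*_KD and 27.5 RPM in GFP_KD, a change of 2.10 ± 0.20. Clusters 6 and 31 together held 37 of the 84 bins with a 2-fold rise (44.0%).

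**Figure D3:**
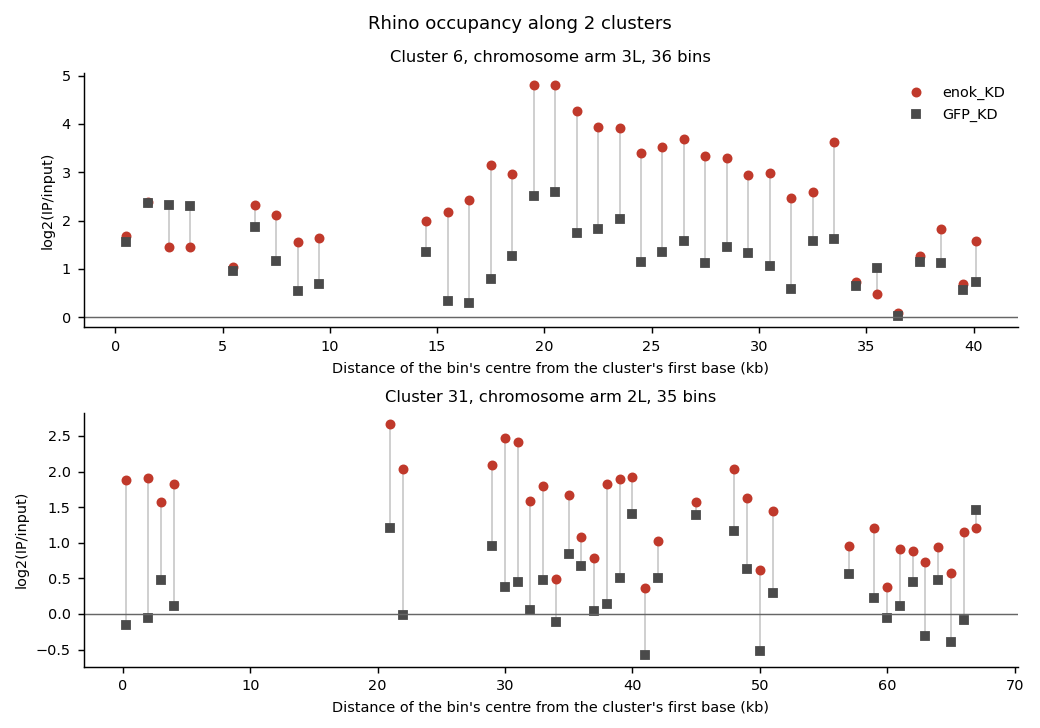
Occupancy, log2(IP/input), of the bins of cluster 6 (top) and cluster 31 (bottom) against the distance of the bin's centre from the first base of the cluster in kb, in *enok*_KD (red circles) and GFP_KD (grey squares), with gaps where no bin was tabulated. In cluster 6 the widest gaps lie in the run of 21 bins, and the 15 bins outside it include both higher and lower ones, while in cluster 31 the *enok*_KD value is the higher one in 34 of 35 bins.

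On 2R, clusters 73, 39 and 28 had a median change with an interval above 0, and cluster 112 had a median near that of cluster 31. Cluster 112 (chr2R:410698-420947, 10 bins) had a median of 1.53 in *enok*_KD and 0.57 in GFP_KD. Its change of 0.98 had an interval of -0.19 to 1.67, and its input median shifted by 0.30, the largest shift among clusters of at least 10 bins. Cluster 73 (chr2R:848779-887289, 35 bins) had 0.76 in *enok*_KD and 0.31 in GFP_KD, a change of 0.55 (0.21 to 0.76). In the control both had a median below that of all arm bins. Cluster 39 (chr2R:744684-782837, 29 bins) had 1.11 in *enok*_KD and 0.73 in GFP_KD, a change of 0.29 (0.04 to 0.73). Cluster 28 (chr2R:108001-209000), with 58 bins the one with most bins, had 0.82 in *enok*_KD and 0.44 in GFP_KD, a change of 0.22 (0.12 to 0.48). Its bins ranged from -2.56 to 1.93, with 12 at least 2-fold higher and 3 at least 2-fold lower. The lowest, chr2R:181001-182000, rested on 2 reads in the GFP_KD input and had a counting SE of 1.12. Its IP alone was higher in *enok*_KD, by 0.36 in log2.

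The rise in cluster 39 sat in a short stretch. At chr2R:761001-762000 the IP had 58.4 RPM in *enok*_KD and 10.2 RPM in GFP_KD, over inputs of 8.52 RPM in *enok*_KD and 7.77 RPM in GFP_KD. This change of 2.39 ± 0.34 was second to that in cluster 6. Around it, chr2R:759001-760000 had an occupancy of 2.25 in *enok*_KD and 0.66 in GFP_KD, and chr2R:763001-764000 had 3.64 in *enok*_KD and 1.78 in GFP_KD. The bins from chr2R:776001 onward had changes between -1.03 and 0.52.

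The remaining clusters of at least 10 bins on the autosomal arms had median changes between -0.33 and 0.50. Cluster 32 (chr3L:23452699-23482444, 31 bins) had a median of 0.88 in *enok*_KD and 0.34 in GFP_KD, a change of 0.50 (0.23 to 0.77), and the 13 bins at its low-coordinate end were all higher. Cluster 62 (chr2L:22260001-22292510, 10 bins) had a change of 0.33 (-0.07 to 0.83), cluster 58 (chr3L:24467284-24502317, 14 bins) one of 0.19 (-0.59 to 0.49), cluster 51 (chr2L:22971156-22988000, 17 bins) one of 0.18 (-0.27 to 0.36) and cluster 91 (chr3L:24312078-24321880, 10 bins) one of 0.17 (-0.20 to 0.74). In all 4 the interval included 0. Cluster 40 (chr3L:23965001-24046804, 45 bins) had a median of 0.43 in *enok*_KD and 0.42 in GFP_KD, with 23 higher and 22 lower bins and a change of 0.01 (-0.17 to 0.10). It held a fall with a small counting error, at chr3L:24013001-24014000, where the IP had 15.9 RPM in *enok*_KD and 36.9 RPM in GFP_KD, over inputs of 27.9 RPM in *enok*_KD and 15.9 RPM in GFP_KD, a change of -2.03 ± 0.24. Cluster 75 (chr3L:24227001-24257000, 21 bins) had 0.71 in *enok*_KD and 0.67 in GFP_KD, with a change of -0.01 (-0.25 to 0.52). Cluster 86 (chr3L:24171077-24199822, 22 bins) had 0.18 in *enok*_KD and 0.22 in GFP_KD, and a change of -0.33 (-0.63 to 0.43).

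Cluster 27 was the arm cluster of at least 10 bins with the highest occupancy in the control, and the interval of its change included 0. It spans chr2L:20104660-20118503, 2893 kb from the centromere-side end and farther out than any other cluster outside the tips. Its 15 bins had a median of 2.05 in *enok*_KD and 2.23 in GFP_KD, and a change of -0.11 (-0.55 to 0.18). The 8 bins from chr2L:20104660 to 20112000 had changes between -0.51 and 0.39. The last 3 bins had changes of -0.55, -0.95 and -2.54, and the last of them, chr2L:20118001-20118503, had 2.33 RPM in the *enok*_KD IP and 6.84 RPM in the GFP_KD IP.

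Both X clusters were lower in *enok*_KD, and these were the 2 clusters of at least 10 bins whose interval lay below 0. Cluster 45 (chrX:22343001-22383561, 32 bins), 14.2 kb from the centromere-side end, had a median of 0.41 in *enok*_KD and 0.82 in GFP_KD. Its change was -0.52 (-0.65 to -0.31), and 27 of its 32 bins were lower. Cluster 9 (chrX:21766001-21844063, 35 bins) had 1.38 in *enok*_KD and 1.81 in GFP_KD, with a change of -0.26 (-0.58 to -0.05) and 25 lower bins. The falls in cluster 9 included bins with many reads. At chrX:21784001-21785000 the IP had 339 RPM in *enok*_KD and 556 RPM in GFP_KD, over inputs of 115 RPM in *enok*_KD and 92.9 RPM in GFP_KD, a change of -1.02 ± 0.08. At chrX:21839001-21840000 the IP had 11.6 RPM in *enok*_KD and 18.8 RPM in GFP_KD, and the inputs 7.47 RPM in *enok*_KD and 4.22 RPM in GFP_KD. There the inputs moved as far as the IP and in the other direction, and the change was -1.52 ± 0.38. In cluster 45, chrX:22345001-22346000 had 13.4 RPM in the *enok*_KD IP and 30.9 RPM in the GFP_KD IP, over inputs of 8.08 RPM in *enok*_KD and 8.13 RPM in GFP_KD, a change of -1.20 ± 0.33. Other bins of cluster 9 had nearly the same high occupancy in both: chrX:21799001-21800000 had 2.78 in *enok*_KD and 2.78 in GFP_KD. X holds only these 2 clusters, so chromosome and cluster cannot be told apart.

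On chromosome 4, cluster 29 (chr4:824220-865373, 41 bins) had a median of 0.76 in *enok*_KD and 0.91 in GFP_KD, and its change of -0.16 had an interval of -0.38 to 0.06. The named fall on 2R, chr2R:196001-197000 in cluster 28, had 6.71 RPM in the *enok*_KD IP and 11.7 RPM in the GFP_KD IP, over inputs of 5.30 RPM in *enok*_KD and 3.59 RPM in GFP_KD. Its change was -1.37 ± 0.48, the least certain by counting of the 8 bins named for a large rise or fall. The lowest change of any arm bin, -3.09 ± 1.06 at chrX:21844001-21844063, rested on 6 reads in the *enok*_KD IP and 20 in the GFP_KD IP.

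A few bins had far more reads than the rest in all 4 libraries, inputs included. Median input was 7.46 RPM in *enok*_KD and 7.39 RPM in GFP_KD, and 20 bins in 8 clusters had at least 10 times the median in both inputs. These had a median occupancy of 1.46 in *enok*_KD and 1.19 in GFP_KD, with a change of 0.20 (-0.00 to 0.29). The bin chr4:614001-615000 in cluster 106 had 6411 RPM in the *enok*_KD IP and 5138 RPM in the GFP_KD IP, over 2075 RPM in the *enok*_KD input and 1947 RPM in the GFP_KD input, a change of 0.23 ± 0.02. The bin chrX:21835001-21836000 in cluster 9 had more input than IP, with 2767 RPM in the *enok*_KD IP and 3220 RPM in the GFP_KD IP over inputs of 6780 RPM in *enok*_KD and 5376 RPM in GFP_KD. Its change was -0.55 ± 0.02. Without the 20 bins the median change over the arms was 0.14 (0.06 to 0.22), and the change with reads pooled was 0.49. With reads pooled over the bins of a cluster in place of the median of its bins, 14 clusters were positive. The clusters that changed sign, 40 and 51, hold none of the 20 bins and had pooled changes of -0.00 and -0.05, both smaller than their counting SE.

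Distance to the chromosome end was measured to the largest coordinate found for an arm in the deposited data, which makes distances to the high-coordinate end lower limits. Bins within 100 kb of the telomere-side end were called telomere-side, those within 1000 kb of the centromere-side end centromere-side, and the others interior. By these limits most of the class was centromere-side: 442 bins in 19 clusters were centromere-side, 100 bins in 7 clusters interior and 10 bins in 2 clusters telomere-side. On chromosome 4 the largest coordinate found was 1351830, and cluster 29, with 41 of the centromere-side bins, lies 824 kb from the centromere-side end but 486 kb from the telomere-side end. Without it the change of the centromere-side bins was 0.16 (0.06 to 0.22). Centromere-side bins had a median occupancy of 0.81 in *enok*_KD and 0.60 in GFP_KD, and a change of 0.12 (0.03 to 0.20). Without cluster 31 that change was 0.04 (-0.02 to 0.14), without cluster 28 it was 0.07 (-0.01 to 0.18) and without cluster 73 it was 0.08 (-0.00 to 0.18). In these 3 of the 19 cases the interval included 0. Interior bins had 1.27 in *enok*_KD and 0.79 in GFP_KD, and a change of 0.35 (0.14 to 0.64). Without cluster 6, which is 36 of the interior bins, that change was 0.21 (-0.12 to 0.35). Telomere-side bins had 0.91 in *enok*_KD and 1.45 in GFP_KD, and a change of -0.76 (-1.86 to -0.06). Of the 2 telomere-side clusters, cluster 33 by itself had a median change of -1.86 and cluster 97 one of -0.48. With the pseudocount the changes were 0.05 (0.01 to 0.10) for centromere-side, 0.16 (0.11 to 0.27) for interior and -0.40 (-0.88 to -0.05) for telomere-side bins.

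Distance from the centromere-side end gave no steady order. Within 250 kb the median change was 0.06 (-0.13 to 0.18) over 136 bins, from 250 to 500 kb it was 0.39 (0.11 to 0.52) over 99 bins, and from 500 to 1000 kb it was 0.05 (-0.02 to 0.21) over 207 bins. The middle band holds cluster 31, without which its change was 0.02 (-0.19 to 0.20). Leaving out single clusters moved the nearest band to between -0.19, without cluster 28, and 0.20, without cluster 45. The band from 500 to 1000 kb had 0.01 without cluster 73, 0.02 without cluster 39, 0.16 without cluster 29 and 0.18 without cluster 9. By their medians, the centromere-side bins differed in direction between chromosomes. On 2L, 2R and 3L, 326 centromere-side bins had a median of 0.79 in *enok*_KD and 0.45 in GFP_KD, with a change of 0.23 (0.17 to 0.31). On X and chromosome 4, 116 such bins had 0.85 in *enok*_KD and 1.08 in GFP_KD, with a change of -0.30 (-0.42 to -0.13), and -0.17 (-0.35 to -0.02) without cluster 45.

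**Figure D4:**
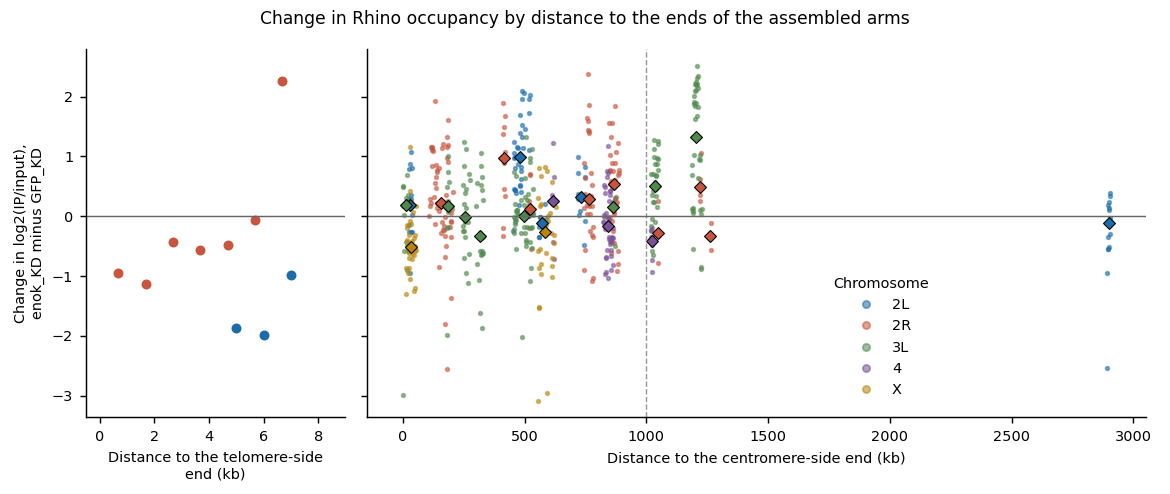
Change in log2(IP/input), *enok*_KD minus GFP_KD, of single bins (dots, coloured by chromosome) against the distance in kb to the telomere-side end (left, 10 bins) and to the centromere-side end (right, all other bins, with diamonds for cluster medians and a dashed line at 1000 kb). At the telomere side 9 of 10 bins lie below 0, while bins on X and chromosome 4 lie mostly below and those on 2L, 2R and 3L mostly above 0 at the centromere side.

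The telomere-side bins are the tips of 2L and 2R, where 9 of 10 bins were lower in *enok*_KD. Cluster 33 is 3 bins, chr2L:5001-8000, 5 kb from the first base of the arm. Its first bin, chr2L:5001-6000, had 11.2 RPM in the *enok*_KD IP and 37.9 RPM in the GFP_KD IP, over inputs of 5.93 RPM in *enok*_KD and 5.51 RPM in GFP_KD, a change of -1.86 ± 0.39. The next had an occupancy of 0.90 in *enok*_KD and 2.89 in GFP_KD, and the third had 7.06 RPM in the *enok*_KD IP and 15.1 RPM in the GFP_KD IP. All 3 were lower beyond counting error. Cluster 97 is 7 bins, chr2R:21139959-21146000, and ends 0.68 kb before the last coordinate found on the arm, so at least that far from the arm's end. Its outermost bin, chr2R:21145001-21146000, had 157 RPM in the *enok*_KD IP and 238 RPM in the GFP_KD IP, over inputs of 74.7 RPM in *enok*_KD and 58.5 RPM in GFP_KD, a change of -0.95 ± 0.12. Its 5 next bins had changes of -1.13, -0.43, -0.56, -0.48 and -0.06, going inward, with counting SEs of 0.37 to 0.58. These 5 rested on fewer reads, and none was beyond its counting error. The innermost bin, 42 bp long, had a change of 2.26 ± 1.93 on 5 reads in the *enok*_KD IP and 4 in the GFP_KD IP, which cannot show a direction.

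The clusters of under 10 bins outside the tips numbered 8 and held 46 bins. On 2R, cluster 71 had a median change of 0.49 with all 5 bins higher, and cluster 56 one of -0.34 with all 4 bins lower. On chromosome 4, cluster 78 had one of -0.41 with all 6 bins lower, and cluster 106 one of 0.26 over 8 bins. None of the bins of cluster 78 was beyond counting error. Clusters 55, 79, 139 and 142 had median changes of 0.15, -0.11, 0.13 and -0.28.

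Both the median change in log2(IP/input) and its spread were larger in the bins of highest occupancy than in those of lowest. Split into 4 equal groups by the mean occupancy of both knockdowns, the arm bins had median changes of 0.03, 0.18, 0.17 and 0.21 from the lowest to the highest group. The interval was -0.10 to 0.18 in the lowest group and 0.11 to 0.35 in the highest. For the IP alone the median changes were 0.11, 0.22, 0.24 and 0.03 in the same order, so there the highest group had the smallest. At least 2-fold higher were 7.25% of the bins in the lowest group and 25.4% in the highest, and 15.9% in the lowest and 29.7% in the highest were higher beyond counting error. At least 2-fold lower were 2.90% in the lowest group and 7.25% in the highest. The SD of the change was 0.65 in the lowest group and 1.11 in the highest. The groups were formed from the same values as the changes, so this is a description. Occupancy in *enok*_KD and GFP_KD had a Pearson r of 0.53 over the 552 bins, and the log2 inputs one of 0.96. These points share libraries and neighbours.

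The deposited peak lists, 1 for each IP library, cover more of the arm bins in *enok*_KD. Peaks that overlap an arm bin by at least 1 bp numbered 60 in *enok*_KD, 70.0 kb in all with a median fold enrichment of 4.26, and 49 in GFP_KD, 37.2 kb with a median fold enrichment of 3.31. They touched 87 bins in *enok*_KD (15.8%) and 57 in GFP_KD (10.3%). Over all 2363 bins each list touched 371 (15.7%), so the share of arm bins was near that of all bins in *enok*_KD and below it in GFP_KD. Of the bins, 49 lay under peaks of both lists, 38 under *enok*_KD peaks only, 8 under GFP_KD peaks only and 457 under none. Most of the arm bins therefore lay outside called peaks in both knockdowns. Over all 2363 bins, 255 lay under peaks of both lists, 116 under *enok*_KD peaks only and 116 under GFP_KD peaks only. Of the peaks, 26 of 60 in *enok*_KD (43.3%) and 6 of 49 in GFP_KD (12.2%) had no overlap in the other list. The same shares over all deposited peaks are not given here, so these counts have no background beside them. Peak calls and bins come from the same IP reads, so they are not independent measurements. Within the arm bins peaks covered 54.5 kb in *enok*_KD and 26.4 kb in GFP_KD. Within all 2363 bins they covered 210.4 kb in *enok*_KD and 210.1 kb in GFP_KD. The *enok*_KD IP had fewer reads than the GFP_KD IP, and the part of depth in the peak calls was not tested.

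**Figure D5:**
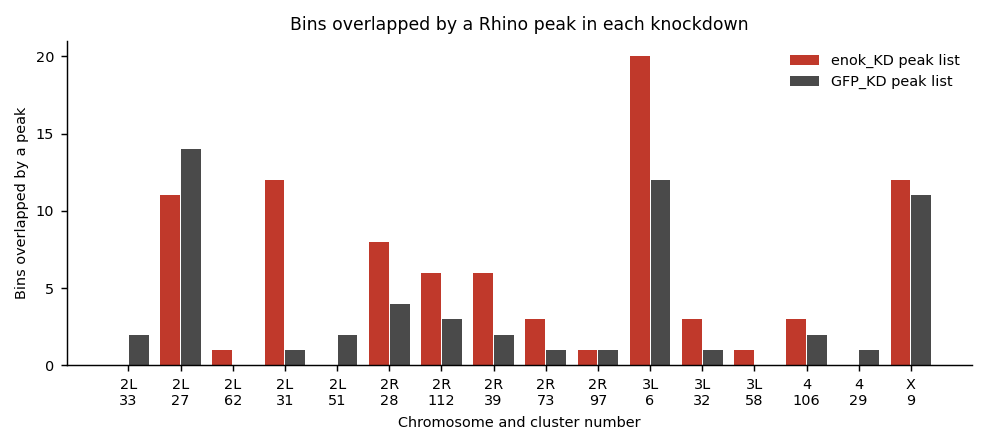
Number of bins overlapped by a peak of the *enok*_KD list (red bars) and of the GFP_KD list (grey bars) in the 16 clusters where any bin was. Cluster 31 shows 12 bins in *enok*_KD and 1 in GFP_KD, cluster 6 shows 20 in *enok*_KD and 12 in GFP_KD, and cluster 27 shows 11 in *enok*_KD and 14 in GFP_KD.

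Peaks were confined to 16 of the 28 clusters by this overlap. More bins lay under *enok*_KD peaks than under GFP_KD peaks in 11 clusters, fewer in 4, and the same number in 1. Clusters 6 and 31 held 19 of the 38 bins under *enok*_KD peaks only. The peak with the highest fold enrichment in *enok*_KD, 24.8, ran for 17107 bp over chr3L:23289186-23306292 in cluster 6 and overlapped 10 separate GFP_KD peaks. The next, with a fold of 15.9, was chr2R:760887-764622 in cluster 39, and the third, with a fold of 12.1, was chr2L:22516085-22519195 in cluster 31 and had no GFP_KD overlap. In GFP_KD the highest fold was 7.55, at chr2L:4850-5435 in cluster 33, which had no *enok*_KD overlap. It was followed by chr2R:182953-183551 in cluster 28, with a fold of 6.97, and chr3L:23293203-23294808 in cluster 6, with a fold of 6.85. The GFP_KD summit at the tip of 2L was thus called in GFP_KD only, and the broad domain of cluster 6 was a single peak in *enok*_KD and several in GFP_KD. Both X clusters were lower in occupancy in *enok*_KD, and cluster 9 had a peak over 12 bins in *enok*_KD and 11 in GFP_KD, and cluster 45 had none in either list.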

How the data were processed

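Rhino IP and input DNA from *enok*_KD and GFP_KD ovaries are listed as 1 library each, and whether a library pools several preparations cannot be told. The authors mapped single-end reads with Bowtie2 2.2.1 to the dm3 genome, with no mismatch and at unique positions, so repeats that cannot be placed uniquely do not contribute. Trimmomatic and MACS2 appear in the submitters' processing notes. For the 1 kb bins the authors scaled reads to library depth (RPM), then corrected for the mappability of the bin. The deposited peak lists give a fold enrichment, the ratio to a control, with p-values and q-values as −log10, in 1 list per IP library. The settings and the control are not given in the sources used here, and the −log10 scores were not used.

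Occupancy was log2(IP/input) without a pseudocount. A step search on the 600 lowest values of each library gave the depths. Whole reads were then found for all 2364 bins, with an index searched between 0.5 and 1 in 3 decimals, and for 0.212% of bins after shuffling. Where several indices were possible, the largest was used (a single one existed in 76.8% of the 552 bins), so reads are upper and counting SEs lower limits. Intervals of medians came from binomial order statistics and those of shares from Wilson's method, both at 95%. The study compared bins by a rank test, which was not run because bins of 1 library are not replicates.

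Named items followed a rule: clusters with at least 10 bins or within 100 kb of a telomere-side end, the 4 largest rises and 4 largest falls among bins at or above the median occupancy with at least 20 reads in each library, and the 3 peaks of each list with the highest fold. Other bins named were chosen after their values were seen. The members and lists were chosen with earlier results of these data known. Alternatives concerned a pseudocount, the IP alone, centring, low reads, clusters, zones and peak overlap. No dm3 sequence or gene annotation was used here. Python 3.11.15, numpy 2.4.6, pandas 2.3.3, scipy 1.17.1 and matplotlib 3.10.9 were used, and the code was tested on simulated data.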

Additional observations from a re-analysis of the deposited data

How the results depend on the processing

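The main results over all arm bins, the zones, the Het comparison and the peak bins were recomputed to 60 alternative values. Of these values 46 were planned and 14 added after seeing the data. Of the 60, 54 kept the direction and stayed within the interval or within 1.5 times of the original value, 6 moved and 0 reversed. Medians of single chromosomes, distance bands and occupancy groups are not among the 60, and some changed sign. On 2L the change was -0.02 without cluster 31, and within 250 kb of the centromere-side end it was -0.19 without cluster 28. With a pseudocount of 9.15 RPM added to every value, 38 bins were at least 2-fold higher and 2 at least 2-fold lower, and with the IP alone 14 were at least 2-fold lower. The pseudocount made the changes smaller by over 1.5 times, to a median of 0.07 over the arm bins, 0.05 over centromere-side, 0.16 over interior and -0.40 over telomere-side bins, and put the arm bins 0.12 above the Het bins. Centred on all bins, the centromere-side change was 0.18. The IP alone put the arm bins 0.33 above the Het bins. With at least 20 reads in each library, 8 bins were at least 2-fold lower. Without X, a choice made after seeing the data, the median change over the arms was 0.22. With at least 50% of the bin covered, 55 bins lay under peaks in *enok*_KD and 26 in GFP_KD. No paired analysis was possible because the knockdowns have no replicate libraries. Depth limited single bins: the median counting SE of a change was 0.41. A 2-fold change in a bin of few reads was thus not always beyond counting error, and a difference between flies or preparations could not be measured.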
